A study of Mus musculus with 47 samples.

Results

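Single wild-type (WT) fibres of the extensor digitorum longus (EDL), a fast muscle of the mouse shank, were ranked by their level of Myh4, and the 9 fibres with the highest level (high-Myh4 fibres) were set against the 9 with the lowest (low-Myh4 fibres). These 18 fibres were chosen from 27 WT fibres in a series of 47. The level was the count of Myh4 divided by all gene counts of the fibre, per 1000000 gene counts, called CPM. The Myh4 count itself fixed the groups, so every value below is a description of these fibres, and no test was made between them. The study compared WT fibres with fibres lacking fast myosin binding protein-C. All mice were on the FVB/N background and 2 to 3 months old. The WT fibres came from 3 mice and carried no altered allele, whereas the C2KO fibres came from 2 mice (C2-/-) in which a Neo cassette replaces a block of Mybpc2 exons. Fibres were freed with collagenase, picked as intact single cells, and their RNA was purified on columns. The labels do not tie a fibre to its mouse, so they do not tell which fibres share an animal.

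Myh4 encodes the myosin heavy chain of type IIb fibres, the fastest fibre type of the mouse limb, and its transcript is one of the most abundant in these cells. The heavy chains form the thick filament and pull on actin, while the sarcoplasmic reticulum pump encoded by Atp2a1 returns calcium and lets the fibre relax. Because a sequencing library is a fixed total, a lower share of 1 abundant transcript leaves room for others, and the comparison asks which transcripts were low together with Myh4 and which took up the counts instead.

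The promoter windows of 4 genes on which the share of counts turned are shown here: Myh4, which set the ranking, Atp2a1 and Ttn, which had the largest gains of share in high-Myh4 fibres, and Acta1, which had the largest loss. Each RefSeq window (GRCm38.p6) runs from 250 bases before to 50 bases after the annotated start. The windows lie at chr11:67237562-67237861 on the plus strand for Myh4, and on the minus strand at chr7:126463024-126463323 for Atp2a1, chr2:76982498-76982797 for Ttn and chr8:123894726-123895025 for Acta1. Capitals mark matches, on either strand, to the E-box CANNTG bound by myogenic factors, the TATA box TATAAA and a simplified MEF2 pattern (CTA, 4 bases of any kind, TAG).
Myh4: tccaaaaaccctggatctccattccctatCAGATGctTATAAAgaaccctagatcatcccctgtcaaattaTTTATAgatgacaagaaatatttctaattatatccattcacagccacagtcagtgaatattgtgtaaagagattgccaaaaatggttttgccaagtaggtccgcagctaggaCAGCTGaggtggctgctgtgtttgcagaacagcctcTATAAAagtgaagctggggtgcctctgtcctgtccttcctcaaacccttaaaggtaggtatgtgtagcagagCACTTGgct
Atp2a1: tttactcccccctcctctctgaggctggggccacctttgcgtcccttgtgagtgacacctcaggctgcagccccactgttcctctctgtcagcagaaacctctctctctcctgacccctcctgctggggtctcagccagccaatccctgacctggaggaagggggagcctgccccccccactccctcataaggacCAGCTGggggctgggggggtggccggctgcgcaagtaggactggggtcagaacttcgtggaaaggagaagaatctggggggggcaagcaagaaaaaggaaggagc
Ttn: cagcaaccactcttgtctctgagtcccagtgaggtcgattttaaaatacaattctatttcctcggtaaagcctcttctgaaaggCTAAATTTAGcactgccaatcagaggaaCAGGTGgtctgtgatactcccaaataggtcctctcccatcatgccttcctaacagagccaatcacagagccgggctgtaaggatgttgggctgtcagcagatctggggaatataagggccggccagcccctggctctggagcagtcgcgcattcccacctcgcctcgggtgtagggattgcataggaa
Acta1: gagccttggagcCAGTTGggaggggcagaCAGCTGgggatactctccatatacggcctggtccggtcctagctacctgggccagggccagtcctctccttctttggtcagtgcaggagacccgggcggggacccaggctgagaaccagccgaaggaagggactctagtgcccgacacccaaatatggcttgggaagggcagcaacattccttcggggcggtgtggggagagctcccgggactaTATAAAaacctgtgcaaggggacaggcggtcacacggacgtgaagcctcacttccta
The Myh4 window held 3 E-box and 3 TATA matches, the Acta1 window 2 E-box matches and 1 TATA match, the Ttn window 1 E-box and 1 MEF2 match, and the Atp2a1 window 1 E-box match. Among all 32851 promoter windows of the same length, 72.3% held an E-box, 13.6% a TATA box and 3.69% a MEF2 match. The E-box is therefore found in most windows, and a match is no more than a description of these letters.

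Depth was alike in the groups. Summed gene counts spanned 7769593 to 13941409 in high-Myh4 fibres and 7842184 to 14395910 in low-Myh4 fibres, and 98.1% of all WT counts fell on Myh4 and the 6044 other genes with a mean of at least 10 CPM over the 27 WT fibres, to which the gene counts below refer. The labelled tissue was borne out by its markers: Myh4 made up 99.3% to 99.6% of the counts of all sarcomeric heavy chains in high-Myh4 fibres and 99.3% to 99.7% in low-Myh4 fibres, and the slow chain Myh7 stayed below 1 CPM. The groups differed in other ways that the labels do not set out. Counts of Xist, the RNA that silences an X chromosome in female cells, outnumbered counts of the Y-linked genes Ddx3y, Eif2s3y, Kdm5d and Uty in 6 of 9 high-Myh4 fibres, against 1 of 9 low-Myh4 fibres. The study describes the EDL fibres it analysed as male, 10 in each group, and the GEO labels give no sex. Counts of Xist prevailed in 12 of all 27 WT fibres and 10 of 20 C2KO fibres. Y-linked counts prevailed in the other 15 WT and 10 C2KO fibres, which leaves room for 10 male fibres in each group. Which fibres the study analysed is not stated in the sources used here. Of the high-Myh4 fibres 5, 2 and 2 came from the 3 sequencing runs that the labels give for WT fibres (here runs A, B and C), against 1, 6 and 2 of the low-Myh4 fibres. Fibres with mainly Xist counts and fibres with mainly Y-linked counts would come from different mice, so the groups also differed in their mix of animals. Xist or Y-linked counts, mouse, run and Myh4 group therefore moved together, and their parts in the values below cannot be told apart in the full comparison.

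Myh4 took 7.39% ± 0.27 of all counts in high-Myh4 fibres and 5.49% ± 1.06 in low-Myh4 fibres (SD, n = 9 each). In CPM its lowest, median and highest values were 69912.5, 73750 and 78138 in high-Myh4 fibres, against 28821, 59557 and 61670 in low-Myh4 fibres, as the ranking required. The log2 difference, high-Myh4 minus low-Myh4 on the log2(CPM + 1) scale used throughout, was 0.46. The cuts fell in a continuous run of values: WT fibre 7 was the last high-Myh4 fibre at 69912.5 CPM and WT fibre 15 the first outside at 69184.9 CPM, while WT fibre 26 headed the low-Myh4 group at 61669.8 CPM below WT fibre 9 at 62646 CPM. WT fibre 13 stood far below every other fibre, at 28821 CPM against 49068 CPM in the next lowest, WT fibre 8.

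Atp2a1 had the largest gain of share after Myh4, most of it from 1 fibre. It measured 80430, 84466.5 and 90658.5 CPM (lowest, median and highest) in high-Myh4 fibres, against 44580, 87194.5 and 90556 CPM in low-Myh4 fibres. The groups overlapped, the median was lower in high-Myh4 fibres, the log2 difference of the means was 0.13, and the lowest value was that of WT fibre 13. With that fibre left out and the other WT fibres ranked again, 9 against 9, the difference was 0.04 and the gain 0.24 percentage points, against 0.60 points with it.

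No other heavy chain gene with a mean of 10 CPM or more took up counts in low-Myh4 fibres. Of the 8 genes, only Myh1 (type IIx), Myh2 (type IIa) and Myh8 (the perinatal chain) reached a mean of 10 CPM, and all 3 were higher in high-Myh4 fibres, as were 42.9% of all genes. Myh1 measured 143, 194 and 285 CPM (lowest, median and highest) in high-Myh4 fibres, against 47.4, 155 and 222 CPM in low-Myh4 fibres, a log2 difference of 0.61. Myh2 measured 160, 218 and 253 CPM in high-Myh4 fibres, against 51.7, 160 and 188 CPM in low-Myh4 fibres, also a log2 difference of 0.61. Both genes overlapped between the groups, and WT fibre 13 held the lowest value of each. Myh8 differed by 0.43, with 171 CPM in the median high-Myh4 fibre and 148 CPM in the median low-Myh4 fibre. The embryonic chain Myh3, the extraocular chain Myh13, the slow chains Myh7 and Myh7b and the cardiac chain Myh6 stayed below 10 CPM in every one of these 18 fibres. The heavy chain genes are near-identical in long stretches, so the counts of the minor chains are uncertain beside a transcript as abundant as Myh4.

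**Figure D1:**
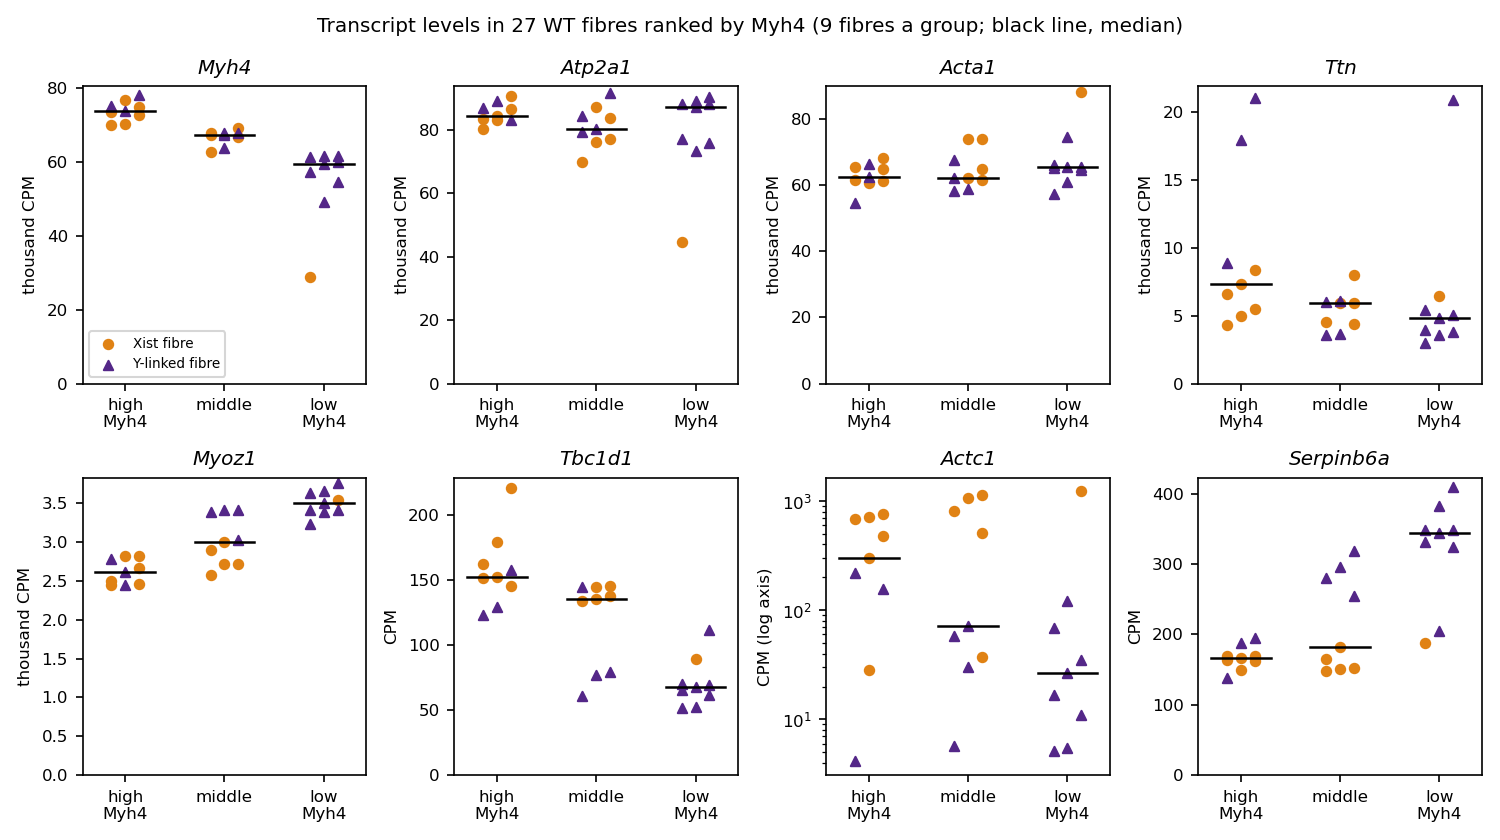
Level of 8 transcripts in each of 27 WT fibres, grouped by Myh4 rank (9 fibres a group, high-Myh4 left, middle, low-Myh4 right); points are fibres, coloured by whether Xist or Y-linked counts prevailed, black lines are medians, and the Actc1 axis is logarithmic. The high-Myh4 and low-Myh4 points of Atp2a1, Acta1, Ttn, Actc1 and Serpinb6a overlap, whereas those of Myoz1 and Tbc1d1 do not.

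Summed over all other genes, the share of counts was lower by 1.90 percentage points in high-Myh4 fibres, the mirror of the Myh4 gain. Beneath that net value far more counts changed hands: genes with a higher mean share in high-Myh4 fibres gained 4.66 points together, and genes with a lower share lost 6.56 points. The 12 largest gains made up 32.2% of all gain and the 12 largest losses 36.4% of all loss. The 12 gains were Atp2a1, Ttn, Mybpc2, Actn3, Neb, Ryr1, Xirp1, Pde4dip, Cmya5, Egr1, Myom2 and Mybpc1. The 12 losses were Acta1, Aldoa, Tnnc2, Ckm, Tnnt3, Tpm1, Pvalb, Tnni2, Mylpf, Tcap, Myl1 and Eno3. With WT fibre 13 left out and the fibres ranked again, all 12 gains and all 12 losses kept their sign of share.

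Among the gains, titin (Ttn) encodes the giant spring that spans the sarcomere from Z-disc to M-band. Its 3 extreme fibres were WT fibre 14 at 21052 CPM and WT fibre 1 at 17950 CPM, both in the high-Myh4 group, and WT fibre 8 at 20913 CPM in the low-Myh4 group. The lowest, median and highest values were 4311, 7341 and 21052 CPM in high-Myh4 fibres, against 3012, 4869 and 20913 CPM in low-Myh4 fibres, a log2 difference of 0.65. The same 3 fibres held the highest levels of Malat1, a long RNA kept in the nucleus: 2734 and 2617 CPM in WT fibres 1 and 14, against 3072 CPM in WT fibre 8, while the next highest of the 18 fibres, WT fibre 13, held 1366 CPM. The part of this feature in the Ttn difference was not tested, but with WT fibres 1, 8 and 14 left out and the others ranked again, 8 against 8, the Ttn difference was 0.47.

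The other gains of share were smaller and overlapped between the groups. Ryr1, the calcium release channel of the triad, measured 980, 1826 and 3211 CPM (lowest, median and highest) in high-Myh4 fibres, against 1104, 1249 and 1656 CPM in low-Myh4 fibres, a log2 difference of 0.45. Cmya5 (myospryn) and Pde4dip (myomegalin), which tether kinases and phosphodiesterases, differed by 0.34 and 0.26. Nebulin (Neb), the ruler of the thin filament, differed by 0.17, Myom2, a crosslinker of the M-band, by 0.27, and Actn3, the fast-fibre α-actinin, by 0.10. Of the myosin binding proteins C, Mybpc2 (the fast paralog) measured 10724 CPM in the median high-Myh4 fibre and 9214 CPM in the median low-Myh4 fibre, and Mybpc1 (the slow paralog) 3811 CPM and 3685 CPM in the same order. Xirp1 and Egr1 varied over wide ranges in both groups. For Egr1, an immediate-early transcription factor, the mean share was higher in high-Myh4 fibres but the mean of the logs was lower, at -0.03, so its direction depends on the scale. Exons of Cmya5 overlap genes on the opposite strand over 2451 and 119 bases, those of Atp2a1 over 48 bases and, among the losses, those of Ckm over 451 bases. The sources used here do not say whether the library kit keeps strand.

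Among the losses, skeletal actin (Acta1) was the largest in points. It measured 54638, 62561 and 68299 CPM (lowest, median and highest) in high-Myh4 fibres, against 57413, 65441 and 88253 CPM in low-Myh4 fibres, a log2 difference of -0.10. The highest value was again that of WT fibre 13, and the difference was -0.07 without it. The thin filament regulators differed by more in proportion. Troponin C (Tnnc2) measured 15407 CPM in the median high-Myh4 fibre and 17648 CPM in the median low-Myh4 fibre (log2 difference -0.23), and troponin I (Tnni2) 9230 CPM and 10027 CPM in the same order (-0.20). The widest proportional difference among the 12 losses was in Tcap (telethonin), the small protein that caps titin at the Z-disc. Tcap measured 2339, 2984 and 4010 CPM in high-Myh4 fibres, against 3513, 4205 and 4937 CPM in low-Myh4 fibres, a log2 difference of -0.47. In the full comparison titin and its cap lay on opposite sides. Within Y-linked WT fibres (compared as set out further on) Tcap differed by -0.10 and Ttn by 0.56. Within Xist WT fibres both were lower, by -0.07 and -0.21. In the C2KO fibres of prefixes 740 and 2445 Tcap differed by -0.30 and -0.11, and Ttn by 0.37 and -0.25. Aldoa and Eno3, glycolytic enzymes, differed by -0.15 and -0.18, Ckm, the muscle creatine kinase, by -0.12, the fast light chains Mylpf and Myl1 by -0.19 and -0.14, and the calcium buffer Pvalb by -0.11. All 12 overlapped between the groups.

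**Figure D2:**
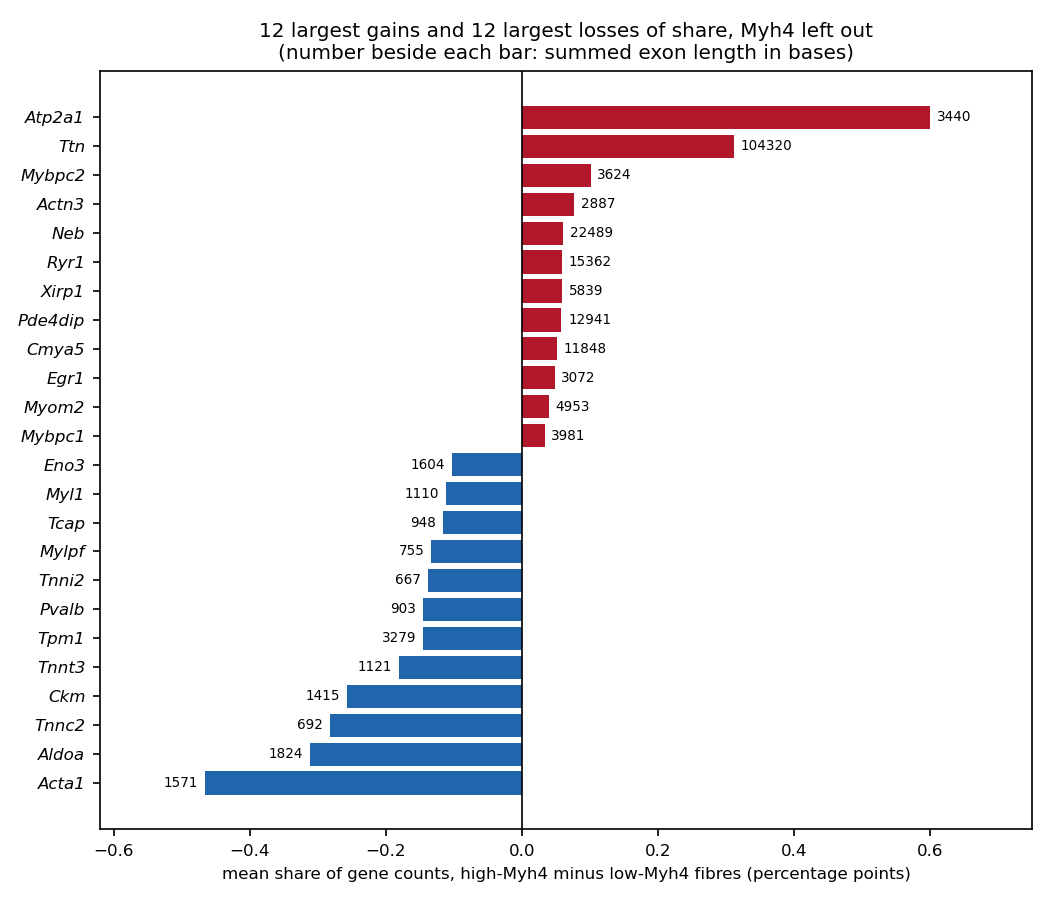
Difference in mean share of gene counts, high-Myh4 minus low-Myh4 fibres, in percentage points, for the 12 genes with the largest gain (red) and the 12 with the largest loss (blue), Myh4 left out; the number beside each bar is the summed exon length in bases. Bars run between 0.60 points for Atp2a1 and -0.47 points for Acta1, and the gains have a median length of 5396 bases, against 1115.5 bases for the losses.

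The gains and losses were ordered by summed exon length, which can exceed the length of a single transcript of the gene. The 12 gains had a median summed exon length of 5396 bases and none was shorter than 2887 bases, whereas the 12 losses had a median of 1115.5 bases and none was longer than 3279 bases. The same order ran through all 6044 genes. Of 487 genes of up to 1000 bases, 5.54% were higher in high-Myh4 fibres and their median log2 difference was -0.22. Of 1007 genes over 3000 and up to 4000 bases, 52.3% were higher, with a median of 0.0063. Of 238 genes over 8000 and up to 12000 bases, 84.0% were higher, with a median of 0.24. Over all genes 42.9% were higher and 57.1% lower, with a median of -0.05. Across the 6044 genes Spearman's correlation of the log2 difference with exon length was 0.62, a description, since genes of 1 fibre share its library and are not independent. It was 0.58, 0.61 and 0.66 in 3 equal groups of genes with the lowest, middle and highest expression, and 0.57 over the 77 measured members of the contractile and calcium lists.

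In shares, genes of up to 2000 bases held 39.03% ± 1.48 of counts in high-Myh4 fibres and 43.3% ± 4.17 in low-Myh4 fibres (SD, n = 9 each). The ranges were 36.9% to 40.8% in high-Myh4 fibres and 40.2% to 53.98% in low-Myh4 fibres, the top value being WT fibre 13. Genes over 4000 bases, Myh4 left out, held 16.9% ± 1.48 in high-Myh4 fibres and 14.7% ± 1.44 in low-Myh4 fibres. Both measures overlapped between the groups, the short genes only at the edge. Myh4, at 6037 bases, is itself long by this measure: 675 genes lay within 1.2-fold of its length, their median log2 difference was 0.20, and 86 of them matched or passed the 0.46 of Myh4. With WT fibre 13 left out and the fibres ranked again the correlation with length was 0.55, and with WT fibres 1, 8 and 14 left out it was 0.54.

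**Figure D3:**
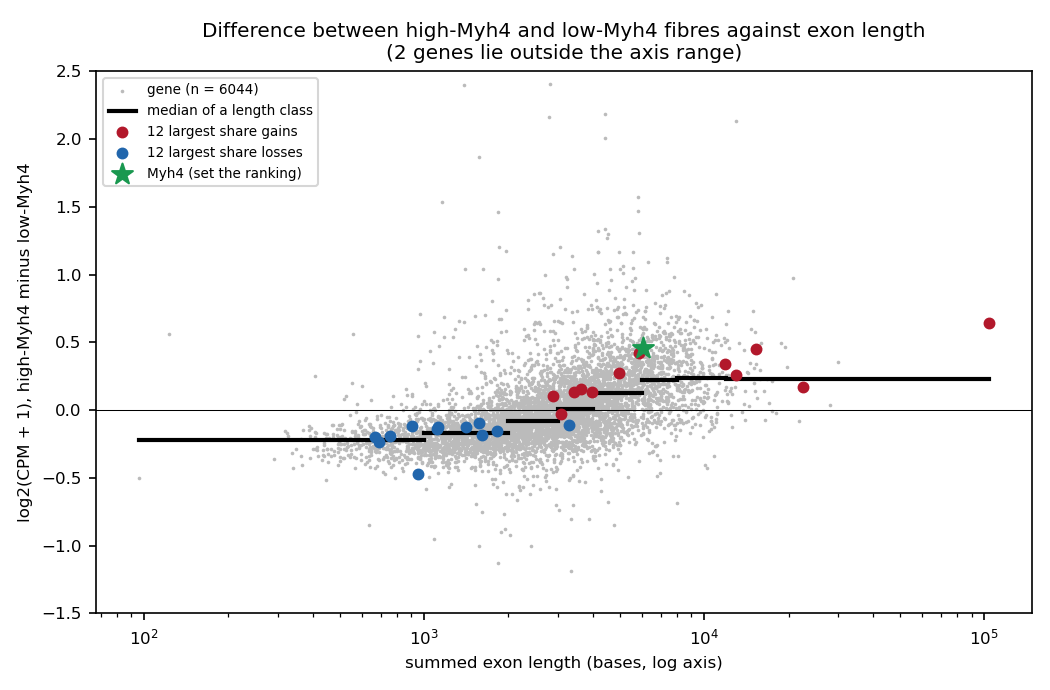
Log2 difference, high-Myh4 minus low-Myh4 fibres, of 6044 genes (grey points) against summed exon length in bases on a log axis; black lines are medians of 8 length classes, red and blue points the 12 largest gains and losses of share, and the star is Myh4. Class medians lie at -0.22 for the shortest genes and at 0.23 for genes over 12000 bases, and Myh4 sits above the median of genes of its length.

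Of the lists of genes with a common role, the 3 with a median length under 2000 bases all had medians below 0 and 6 of the 7 over 3000 bases had medians above 0, while those between were of both signs. The lists were drawn up with earlier results of these data known, and their counts are read only against all genes, of which 42.9% were higher in high-Myh4 fibres. The compact genes of energy metabolism and protein turnover were nearly all lower. All 38 measured nuclear-encoded subunits of the respiratory chain and ATP synthase, with a median length of 820 bases, were lower in high-Myh4 fibres, at a median log2 difference of -0.25. The list held 2.04% ± 0.17 of counts in high-Myh4 fibres and 2.34% ± 0.24 in low-Myh4 fibres (SD, n = 9 each). Of 69 measured cytosolic ribosomal proteins 67 were lower (median -0.14), of 31 proteasome subunits 29 (median -0.16), of 18 citrate cycle genes 16 (median -0.11) and of 20 genes of fatty-acid oxidation 18 (median -0.18). When each gene was set against the median of its length class, the medians of these 5 lists lay between -0.07 and 0.07. So centred, 58 of the 69 ribosomal and 23 of the 31 proteasome genes were higher, as were 50% of all genes. Of the respiratory chain, citrate cycle and fatty-acid oxidation genes, 10 of 38, 3 of 18 and 5 of 20 were higher. With WT fibres 1, 8 and 14 left out, 34 of the 38 respiratory chain genes and 52 of the 69 ribosomal protein genes were lower, and the citrate cycle median turned to 0.0047.

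Glycolysis, the main fuel of type IIb fibres, lost 0.65 points of share in high-Myh4 fibres, with 15 of 23 measured genes lower. Glycogen phosphorylase (Pygm) measured 11373 CPM in the median high-Myh4 fibre and 11631 CPM in the median low-Myh4 fibre, but its log2 difference of the means was 0.01. Hexokinase 2 (Hk2), which traps glucose in the fibre, measured 230, 281 and 752 CPM (lowest, median and highest) in high-Myh4 fibres, against 96.4, 156 and 301 CPM in low-Myh4 fibres (log2 difference 0.95). Phosphoglycerate mutase 2 (Pgam2) was the lowest of the list at -0.25. The creatine kinase and adenylate list lost 0.38 points, and its member Slc25a4, the mitochondrial ADP/ATP carrier, did not overlap between the groups: its highest value in high-Myh4 fibres was 3979 CPM and its lowest in low-Myh4 fibres 3997 CPM.

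The sarcomere lists split within themselves. The thin filament lost 1.21 points, with 11 of 15 measured genes lower, and the thick filament and M-band gained 0.27 points, with 9 of 14 higher. In the Z-disc list 13 of 21 were lower: Flnc, a stretch-bearing filamin of 9166 bases, differed by 0.67 (-0.10 without run A), whereas Pdlim5, a scaffold of 6812 bases, differed by -0.48 against the order of length. Pdlim5 measured 305, 329 and 384 CPM in high-Myh4 fibres, against 381, 466 and 533 CPM in low-Myh4 fibres, with overlap only at the edge. In the list for calcium release, pump and buffer 10 of 24 were higher. Of all genes 42.9% were higher and 57.1% lower, near the counts of the Z-disc and calcium lists. The gain of the calcium list, 0.51 points, was less than the 0.60 points of Atp2a1 by itself. The micropeptide Mrln (myoregulin), an inhibitor of the pump, was the lowest of that list at -0.51.

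All 15 measured genes of the unfolded-protein and integrated stress response were higher in high-Myh4 fibres, at a median of 0.16 and a median length of 2206 bases, and 14 of 15 were with WT fibre 13 left out. Within Y-linked WT fibres, however, 9 of 15 were higher with a median of 0.0061, within Xist WT fibres (each compared as set out further on) 13 of 15 with a median of 0.085, and in the C2KO fibres of prefixes 740 and 2445 9 and 10 of 15. The differences in single genes were small: the chaperone Hspa5 (BiP) measured 222, 255 and 359 CPM in high-Myh4 fibres, against 193, 222 and 277 CPM in low-Myh4 fibres (log2 difference 0.26). Of 10 measured neuromuscular junction genes 8 were higher, at a median of 0.39, led by Dok7, the adaptor of the receptor kinase MuSK, at 0.65. Within Y-linked and Xist WT fibres 7 and 9 of 10 were higher, whereas 6 and 4 of 10 were in the C2KO fibres of prefixes 740 and 2445. Of 21 heat shock genes 13 were higher, led by the inducible Hspa1b at 2.41, whose reads cannot be fully parted from those of its near-identical copy Hspa1a (2.16). Hspa1b ranged over 4.82, 54.03 and 556 CPM (lowest, median and highest) in high-Myh4 fibres, against 2.30, 9.83 and 92.4 CPM in low-Myh4 fibres. In the list of ubiquitin ligases, FoxO and autophagy 13 of 19 were higher, Fbxo30 by 1.06 and the atrophy ligase Trim63 (MuRF1) by 0.68, and Map1lc3a by -0.50. In Y-linked WT, Xist WT, 740 and 2445 fibres 11, 9, 4 and 11 of these 19 were higher. Of the 21 heat shock genes 12, 18, 4 and 9 were higher in the same order. Of all genes 37.9%, 58.3%, 48.2% and 61.3% were. Trim63 differed by 0.71, 0.09, -0.12 and 0.23 in that order.

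Of the remaining lists, 22 of 30 myogenic and fast-fibre transcription factors were higher. Myod1, the myogenic master factor, measured 47.7, 67.7 and 187 CPM (lowest, median and highest) in high-Myh4 fibres, against 22.8, 28.7 and 50.8 CPM in low-Myh4 fibres (log2 difference 1.21). Of 26 splicing factors 17 were higher and of 13 genes of the dystrophin-glycoprotein complex 10, with Dmd (dystrophin) at 0.44. The median lengths of these 3 lists were 4096, 3208 and 4408 bases. Set against the median of their length class, 14 of 30 transcription factors (median -0.05), 15 of 26 splicing factors and 8 of 13 complex genes were higher. Of all genes 50% were. Of 25 immediate-early genes 9 were higher, of 21 translation factors 10, of 5 long non-coding RNAs 4, of 8 creatine kinase and adenylate genes 2, and of 4 metallothionein and zinc genes 2. The sign of the translation factor median, -0.06, turned with DESeq2 size factors (0.02) and with WT fibre 13 left out (0.02).

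**Figure D4:**
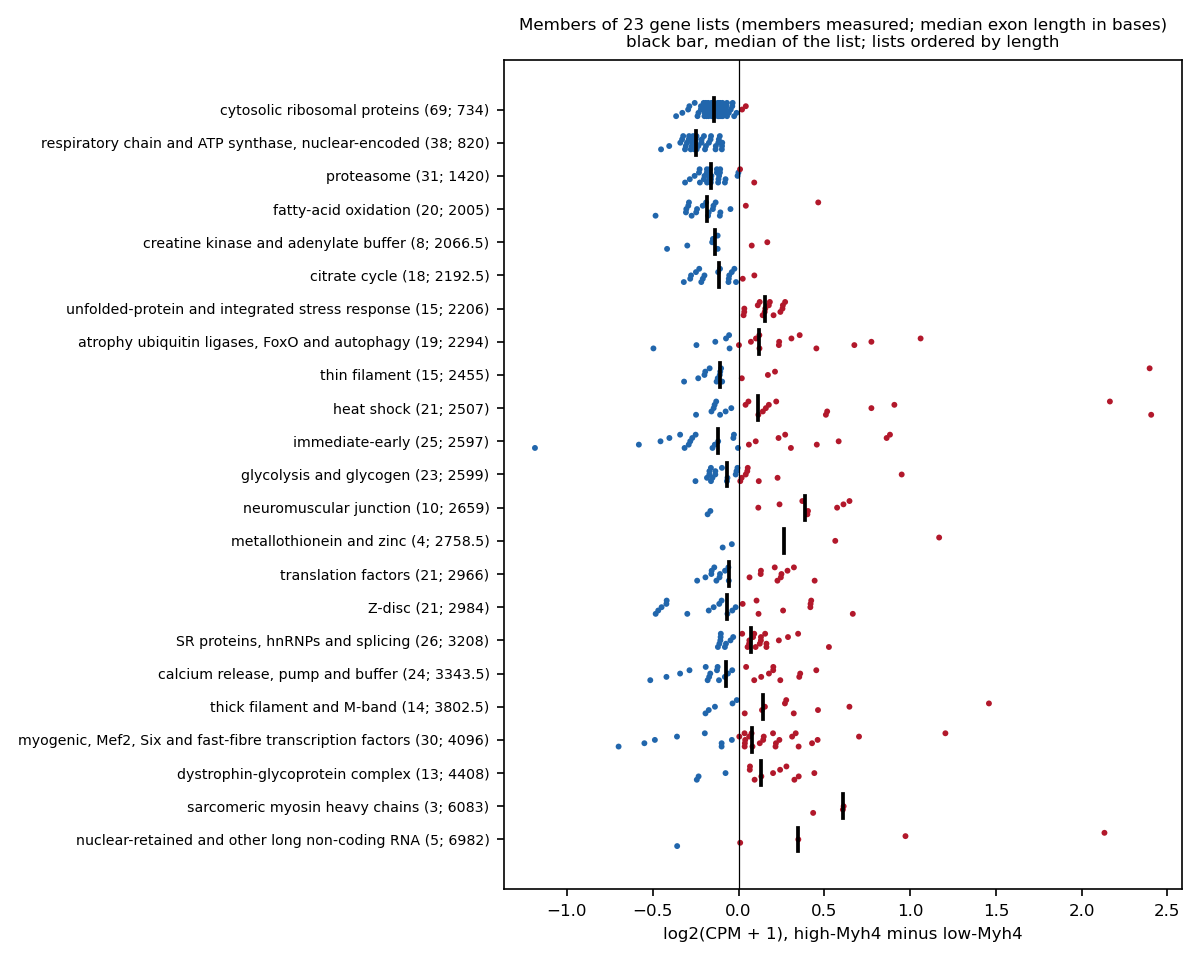
Log2 difference, high-Myh4 minus low-Myh4 fibres, of the measured members of 23 gene lists; each point is a gene (red above 0, blue below), the black bar is the median, and lists are ordered by median exon length with the shortest at the top. The ribosomal, respiratory chain and proteasome lists at the top lie almost wholly below 0, and the 15 unfolded-protein genes lie wholly above it.

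Genes whose 9 high-Myh4 fibres all lay above the 9 low-Myh4 fibres numbered 4 (0.0662%), and genes whose high-Myh4 fibres all lay below numbered 17 (0.281%); as the ranking used the same libraries, nothing is read from these shares. The 4 were long, between 5557 and 14876 bases. Tbc1d1, a Rab regulator of glucose transporter traffic, was the clearest, at 123, 152 and 220 CPM (lowest, median and highest) in high-Myh4 fibres, against 51.6, 67.5 and 112 CPM in low-Myh4 fibres (log2 difference 1.16). Kdm5c, an X-linked histone demethylase, differed by 0.86, Zeb2, a zinc finger repressor, by 0.79 and Dido1, a chromatin-binding protein, by 0.73. The Y-linked partner of Kdm5c, Kdm5d, differed by -1.54 at under 10 CPM.

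The 17 lower genes were short, with a median of 1625 bases. Myoz1 (calsarcin-2), a Z-disc protein that binds calcineurin, was the most abundant after Slc25a4, at 2444, 2620 and 2818 CPM in high-Myh4 fibres, against 3226, 3499 and 3765 CPM in low-Myh4 fibres (log2 difference -0.42). The 9 fibres between the groups had a median of 2999 CPM. Map1lc3a, an LC3 protein of the autophagosome membrane, measured 206, 229 and 253 CPM in high-Myh4 fibres, against 290, 315 and 387 CPM in low-Myh4 fibres (-0.50). The others with the largest differences were Tmem9b, the prefoldin subunit Vbp1, the succinate dehydrogenase assembly factor Sdhaf1, Sccpdh, the complex I subunit Ndufa8 and the carbonic anhydrase Car14, between -0.39 and -0.34. For Vbp1 the groups were parted by no more than 73.8 CPM in the highest high-Myh4 fibre and 74.0 CPM in the lowest low-Myh4 fibre. Exons of Car14 overlap those of Aph1a on the opposite strand over 413 bases.

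A fold of 1.5 was passed by 183 genes higher (3.03%) and 29 genes lower (0.48%) in high-Myh4 fibres. The higher set had a median length of 4866 bases and the lower set one of 2201 bases, against 2871 bases over all genes. Of the genes named here and in the closing observations, Adora1, Csf1, Hmox1, Vegfa, Serpinb6a, Aldh1a1, Mss51, Rrad, AW551984, E030003E18Rik and, above, Hspa1a were chosen after their values were seen. Actc1, the cardiac actin of the heart and of developing muscle, measured 4.12, 298 and 757 CPM (lowest, median and highest) in high-Myh4 fibres, against 5.14, 26.7 and 1234 CPM in low-Myh4 fibres, a log2 difference of 2.40. The highest value of all 18 fibres was thus in a low-Myh4 fibre, WT fibre 13. Whether some reads were shared between Actc1 and the related Acta1 was not tested. In WT fibres 6 and 18, Acta1 at 54638 and 65441 CPM stood beside Actc1 at 4.12 and 5.47 CPM. WT fibre 13 held the highest value of both, 88253 and 1234 CPM. Mybph, a relative of the myosin binding proteins C, measured 254 CPM in the median high-Myh4 fibre and 50.4 CPM in the median low-Myh4 fibre (1.46), and its exons overlap those of Adora1 (1.47) on the opposite strand over 662 bases. Adora1 rose and fell with Mybph: 1.54 beside 3.35 CPM in WT fibre 6, 72.3 beside 155 CPM in WT fibre 8 and 150 beside 345 CPM in WT fibre 7. The part of Mybph reads in the Adora1 values was not tested, so Adora1 is not read as a separate difference.

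Several signalling genes differed more evenly. Csf1, a macrophage growth factor, measured 4.16, 17.8 and 51.3 CPM in high-Myh4 fibres, against 1.35, 2.08 and 5.61 CPM in low-Myh4 fibres (log2 difference 2.01). Hmox1, the haem oxygenase induced by oxidative stress, measured 19.9, 54.2 and 231 CPM in high-Myh4 fibres, against 10.5, 14.2 and 33.6 CPM in low-Myh4 fibres (1.87). Vegfa, the vessel growth factor, measured 73.8, 164 and 324 CPM in high-Myh4 fibres, against 37.8, 50.7 and 139 CPM in low-Myh4 fibres (1.32). Each of the 3 overlapped between the groups. In the other direction, Serpinb6a, a protease inhibitor, measured 138, 167 and 194 CPM in high-Myh4 fibres, against 188, 344 and 409 CPM in low-Myh4 fibres (-0.90), and Aldh1a1, a retinal dehydrogenase, differed by -0.92, Mss51, a mitochondrial protein of fast muscle, by -1.13 and the orphan nuclear receptor Nr4a2 by -1.19. The largest negative values were the Y-linked Ddx3y (-3.46) and Eif2s3y (-3.24), beside the uneven split of Xist and Y-linked fibres given above.

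That split allowed a comparison within each kind of fibre, although these comparisons share fibres with the main one and are given beside it, not as support. Among the 15 WT fibres with mainly Y-linked counts, the 5 highest Myh4 values spanned 67739 to 78138 CPM and the 5 lowest 49068 to 60104 CPM. The correlation of the log2 difference with length was 0.53 across the 6044 genes, and all 12 gains were higher and all 12 losses lower on the log2 scale, with 37.9% of all genes higher and 62.1% lower. Of the 183 genes, 180 were also higher. Actc1 differed by 0.20 and Mybph, with the other sign, by -0.69, whereas Hmox1 (1.93), Hspa1b (2.86) and Tbc1d1 (0.71) kept their sign.

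Among the 12 WT fibres with mainly Xist counts, the 4 highest spanned 72724 to 76849 CPM and the 4 lowest, WT fibre 13 among them, 28821 to 67194 CPM. The correlation with length was 0.55, all 12 losses were lower and 9 of 12 gains higher, with 58.3% of all genes higher and 41.7% lower. The 3 that were lower were Ttn (-0.21), Ryr1 (-0.11) and Neb (-0.10). Actc1 (-0.34), Mybph (-0.21) and Nr4a2 (0.22) changed sign, Csf1 (0.11), Hmox1 (0.08) and Serpinb6a (-0.03) were near 0, and 131 of the 183 genes were higher. The order by length was thus present within both kinds of fibre, whereas the difference of Actc1 was small or of the other sign in both.

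The 20 C2KO fibres took no part in the ranking and offer the same measures in other animals. Their titles carry 2 prefixes, 740 (10 fibres with mainly Y-linked counts) and 2445 (10 with mainly Xist counts), and the 5 highest were set against the 5 lowest Myh4 values within each. By run, 16 of the 20 came from a further run (here run D), 3 from another (run E) and 1 from run C. All 2445 fibres were of run D. In the 740 comparison, C2KO fibre 14 of run E was in the higher 5. C2KO fibres 15 and 16 of run E and 13 of run C were in the lower 5. The part of run in these values was not tested. In the 740 fibres Myh4 differed by 0.28, between 73934 and 84212 CPM in the higher 5 and 53672 and 70027 CPM in the lower 5. The correlation with length was 0.53, 10 of 11 gains were higher, Mybpc2 left out because it is the deleted gene (2.61 to 47.6 CPM in C2KO fibres), and 10 of 12 losses were lower, with 48.2% of all genes higher and 51.8% lower, and all 38 respiratory chain genes were lower. Short genes held 39.3% to 42.9% of counts in the higher 5 and 43.6% to 45.3% in the lower 5, without overlap. In the 2445 fibres Myh4 differed by 0.19 and the correlation was 0.12. Of the 11 gains 7 were higher and of the 12 losses 7 lower, with 61.3% of all genes higher and 38.7% lower, and 37 of 38 respiratory chain genes were higher, the opposite of the WT and 740 fibres. Short genes held 41.9% to 45.1% in the higher 5 and 43.5% to 44.6% in the lower 5, with overlap.

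Of the 183 genes higher in high-Myh4 WT fibres, 92 were higher in the 740 comparison and 96 in the 2445 comparison, where 48.2% and 61.3% of all genes were higher. Of the named genes without overlap, Tbc1d1 (0.33 and 0.13), Kdm5c (0.50 and 0.21) and Dido1 (0.015 and 0.51) kept their sign in both. On the lower side Map1lc3a (-0.30 and -0.11), Myoz1 (-0.13 and -0.06) and Tmem9b (-0.04 and -0.04) did so. Vbp1 (0.04 and 0.12) and Sccpdh (0.05 and 0.11) had the other sign in both. Zeb2 (-0.04), Sdhaf1 (0.03), Ndufa8 (0.04), Car14 (0.12) and Slc25a4 (0.10) had it in the 2445 comparison only. Csf1 (-1.02 and -1.38), Hmox1 (-1.15 and -0.32) and Myod1 (-0.97 and -0.88) had the other sign in both. Each C2KO comparison is of 1 prefix, and the labels do not state that a prefix is 1 mouse. The C2KO fibres came from 2 mice, however, and 740 fibres had mainly Y-linked and 2445 fibres mainly Xist counts. Each prefix would thus be 1 mouse, and differences between the prefixes are also differences between 2 animals.

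**Figure D5:**
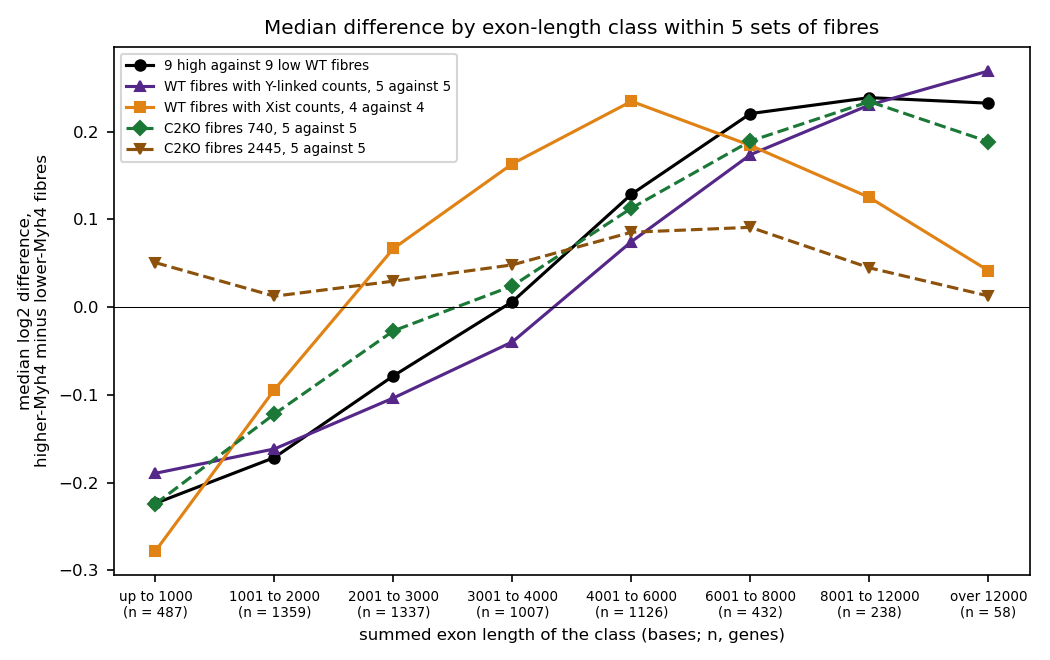
Median log2 difference, higher-Myh4 minus lower-Myh4 fibres, of genes in 8 classes of summed exon length (bases), within 5 sets of fibres; each point is the median of the number of genes given under the axis. The line of the 9 against 9 WT fibres runs between -0.22 and 0.24, the Y-linked WT and the C2KO 740 lines run beside it, the Xist WT line peaks at 0.23 for genes over 4000 and up to 6000 bases, and the C2KO 2445 line stays between 0.01 and 0.09.

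Transcripts of other cells were scarce in both groups. Summed over 12 endothelial markers the highest fibre held 5.19 CPM in the high-Myh4 group and 2.30 CPM in the low-Myh4 group, and adipocyte and erythrocyte markers stayed below 1 CPM in all 18 fibres. Of 13 fibroblast markers the sum was 54.6, 85.2 and 468 CPM (lowest, median and highest) in high-Myh4 fibres, against 81.3, 117 and 185 CPM in low-Myh4 fibres, most of it Smoc2. Without Smoc2, WT fibre 2 (373 CPM) and WT fibre 12 (98.4 CPM), both high-Myh4, stood above the low-Myh4 maximum of 33.2 CPM in WT fibre 13. Without WT fibre 2 the genes past a fold of 1.5 on the higher side numbered 179, and without WT fibre 12 they numbered 204. Macrophage markers summed to 7.10, 9.31 and 19.5 CPM in high-Myh4 fibres, against 1.98, 3.88 and 7.64 CPM in low-Myh4 fibres, nearly all of it Mrc1, while the pan-leukocyte gene Ptprc was at 0 in all 18 fibres. Satellite cell markers summed to 51.05, 86.8 and 162 CPM in high-Myh4 fibres, against 42.8, 69.1 and 86.0 CPM in low-Myh4 fibres, mainly Sdc4 and Cdh15, with Pax7, the defining gene of these cells, at no more than 0.301 CPM in high-Myh4 fibres and 0.0793 CPM in low-Myh4 fibres. The Schwann cell sum was 24.1, 30.8 and 40.3 CPM in high-Myh4 fibres, against 13.9, 19.4 and 30.8 CPM in low-Myh4 fibres, nearly all Ncam1. Their part in the differences above was not tested.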

How the data were processed

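RNA sequencing of 47 single EDL fibres was used as the raw gene counts deposited by the authors, 1 table per fibre. The authors counted exonic read pairs per gene name with featureCounts 1.5.2 (strand option 2, multi-mapping reads not counted) on mm10 after HISAT2 2.0.5 alignment. The submitters' notes also name CASAVA 1.4 and FastQC 0.11.2. Counts were divided by each fibre's summed gene counts to give CPM. WT fibres were ranked by Myh4 CPM and the 9 highest set against the 9 lowest. Genes with a mean of at least 10 CPM over 27 WT fibres were kept (6044 of 24421), and the log2 difference is that of mean log2(CPM + 1). A count table would call for edgeR's quasi-likelihood test, but no test was run because Myh4 itself chose the groups and fibres of a mouse are not independent. Genes were called by a fold of 1.5 and by non-overlap as descriptions. The script was tested on simulated data.

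The members and gene lists were chosen with earlier results of these data known. Named genes were the heavy chains, the 12 largest gains and losses of share, up to 8 genes without overlap each way, and in each list the 3 most abundant members and the most extreme each way, with Xist, the Y-linked genes and Actc1. Others are said to have been chosen after their values were seen, and a few genes under the rule are not reported here. A fibre was called Xist or Y-linked by which count was larger. Of 145 named genes 115 matched a RefSeq promoter entry (GRCm38.p6). Alternatives used TMM (edgeR 4.0.16), DESeq2 1.42.0 size factors, other group sizes, filters and pseudocounts (0.1 and 5), single runs and single fibres left out. R 4.3.3, Python 3.11.15, pandas 2.3.3, numpy 2.4.6 and matplotlib 3.10.9 were used. The depth, 7648762 to 14606631 gene counts per fibre, sets the counting error of low genes.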

Additional observations from a re-analysis of the deposited data

Results flagged for a closer look

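In 34 of 162 groups of 9 fibres looked at, for 77 genes and 4 library measures, the highest or lowest fibre stood apart from the others by Dixon's criterion. Chance flags about 1 in 20 such groups, and genes of 1 fibre are not independent.

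Most of these values belonged to 1 low-Myh4 fibre, WT fibre 13. It held the lowest Myh4 (28821 CPM), Atp2a1 (44580 CPM), Mybpc1 (2341 CPM) and Pde4dip (1759 CPM) of the low-Myh4 group. It held the highest Aldoa (38388 CPM), Ckm (37816 CPM), Tnnt3 (27419 CPM), Tnnc2 (25143 CPM), Pvalb (24624 CPM), Myl1 (16797 CPM), Mylpf (15998 CPM), Pgam2 (4763 CPM), Actc1 (1234 CPM) and Ndufa8 (322 CPM). Genes of up to 2000 bases held 53.98% of its counts, the highest share of the low-Myh4 fibres. As the only low-Myh4 fibre with mainly Xist counts, it also stood apart in Xist (16.8 CPM), Ddx3y (0.510 CPM), Eif2s3y (0.340 CPM) and Kdm5d (0 CPM).

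WT fibre 8 stood apart in the low-Myh4 group by its high Ttn (20913 CPM), Malat1 (3072 CPM), Ryr1 (1656 CPM), Dmd (215 CPM) and Dok7 (24.1 CPM), and WT fibre 26 by its high Hspa1b (92.4 CPM), Hspa1a (57.5 CPM) and Hmox1 (33.6 CPM). WT fibre 21 held the highest Sdhaf1 of that group (19.8 CPM). In the high-Myh4 group WT fibre 6 had the highest Hk2 (752 CPM) and the fewest genes detected (11183), WT fibre 7 the highest Myod1 (187 CPM) and Zeb2 (32.8 CPM), WT fibre 14 the highest Myh3 (3.45 CPM) and WT fibre 12 the highest Myh6 (0.151 CPM).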

How the results depend on the processing

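All 12 gains and 12 losses of share kept their sign under TMM scaling, DESeq2 size factors, a denominator without Myh4, and with WT fibre 13 or WT fibres 1, 8 and 14 left out and the rest ranked again. The comparisons within Xist or Y-linked fibres, those 2 rankings and the centring on length were added after seeing the data. Counts of genes moved far more. The 183 genes past a fold of 1.5 on the higher side became 336 with 5 against 5 fibres, 31 with 13 against 13, 81 when ranked within each run, 433 with no filter, 41 with only genes averaging 50 CPM or more, and 116 in Y-linked fibres. The 29 on the lower side became 6 (13 against 13), 7 (within run), 79 (without run A), 55 (ratio of medians), 65 (no filter), 11 (at least 50 CPM) and 56 (without WT fibres 1, 8 and 14). The 4 higher genes without overlap became 12 (DESeq2 size factors), 7 (denominator without Myh4), 106 (5 against 5), 0 (13 against 13), 7 (within run), 208, 50 and 34 (without run A, B or C), 1 (at least 50 CPM), 23 (Y-linked), 212 (Xist) and 28 (without WT fibres 1, 8 and 14). The 17 lower genes became 1 (TMM), 5 (DESeq2), 9 (denominator without Myh4), 166 (5 against 5), 0 (13 against 13), 11 (within run), 101, 140 and 128 without those runs, 57 (Y-linked) and 163 (Xist). Smaller groups overlap less by construction. Otherwise the cause was not tested.

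The correlation with length was 0.36 with no filter. Ttn was -0.21 in Xist fibres, Acta1 was 0.059 after centring on length, and the thick filament share was -0.10 points without run A and -0.25 points in Xist fibres. Of 133 other named genes 72 changed sign under at least 1 alternative. Of the 44 past a fold of 1.5 or without overlap, 12 did. In Xist fibres the values were Mybph -0.21, Adora1 -0.23, Actc1 -0.34, Hk2 -0.040, Nr4a3 -0.77, Nr4a2 0.22, Mss51 0.027, E030003E18Rik 0.29 and Aldh1a1 0.074. In Y-linked fibres they were Mybph -0.69, Adora1 -0.68, AW551984 -0.39 and Rrad 0.17. Without run A Flnc was -0.10, and without run B Rrad was 0.50.

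With each of the 18 fibres left out in turn, the fold counts spanned 162 to 234 higher and 24 to 50 lower, the lower count reaching 44 without WT fibre 8 and 50 without WT fibre 13. Genes without overlap spanned 4 to 24 higher, with 24 without WT fibre 8 and 7 to 11 without WT fibres 2, 6, 11, 14, 21 or 26, and 17 to 35 lower, with 34 to 35 without WT fibres 6 or 8 and 26 to 27 without WT fibres 11 or 17. The correlation with length spanned 0.52 to 0.63, Atp2a1 0.03 to 0.16, Ttn 0.48 to 0.90 and Acta1 -0.12 to -0.05. Shares spanned 0.087 to 0.441 points for the thick filament, -1.46 to -0.67 for the thin filament, 0.181 to 0.657 for calcium handling, -0.743 to -0.506 for glycolysis, -0.425 to -0.286 for creatine kinase and adenylate, -0.339 to -0.237 for the respiratory chain, -4.62 to -2.90 for short genes and 1.81 to 2.46 for long genes. No paired analysis was possible because fibre numbers are only names and tie no fibre of one group to a fibre of the other.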
